A study of Mus musculus with 42 samples.

Results

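Ly6a, Ly6c1, Ly6c2 and Ly6e are 4 genes of the mouse Ly6 cluster that encode small surface antigens held in the membrane by a glycosylphosphatidylinositol (GPI) anchor. They were taken by name, 4 of the 21674 genes in the table, and were chosen by measured values with results of these libraries known. Which comparison chose them is not recorded. Low flow against high flow or sham in untreated mice and EC-KO against control arteries under low flow were treated as used for the choice and are given as a description, with no test. The other comparisons are tested, but the choice may have drawn on them too. Ly6a encodes Sca-1, a marker of stem and progenitor cells that arterial and capillary endothelium also carries. Ly6c1 and Ly6c2 encode near-identical Ly6C antigens: Ly6c1 is the form known from endothelium and Ly6c2 the form known from monocytes and other myeloid cells. Ly6e is a widely expressed member that responds to interferon.

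The GPI anchor is made in the endoplasmic reticulum by the Pig enzymes and attached to the finished protein in place of a membrane-spanning stretch. Antigens held this way sit in the outer leaflet of the membrane and can be shed. Anti-Ly6C and anti-Ly6A antibodies are used to sort cells by flow cytometry, where endothelium, monocytes and neutrophils are separated partly on these antigens. The anti-Gr1 antibody used in this study, clone RB6-8C5, binds Ly6G on neutrophils and also Ly6C.

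RNA was flushed from the intima of mouse carotid arteries in pools of 3 to 5 arteries. Flow was lowered in 1 carotid by partial ligation. The contralateral carotid, which then carries high flow, and the carotid of sham-operated mice served as controls. Untreated male C57BL/6J mice aged 6 to 7 weeks gave 3 low-flow, 3 high-flow and 3 sham pools at 48 hr. Male C57BL/6J mice of the same age, also at 48 hr, gave 2 low-flow pools each after control IgG, anti-GPIba (platelet depletion, 50 µg), anti-Gr1 (neutrophil depletion, 25 µg, 24 hr before ligation), PBS liposomes or clodronate liposomes (macrophage depletion, 150 µL). They gave 2 high-flow pools each after IgG and PBS liposomes, and 1 further low-flow pool each after PBS and clodronate liposomes sequenced at 100 bp. The labels do not say whether those last pools came from other mice. At 7 days, Rosa26-mTmG; Rbfox2 lox/lox mice aged 2 to 7 months, of both sexes, gave 3 low-flow and 2 high-flow pools with Cdh5(PAC)-CreERT2 (EC-KO) and the same numbers from littermates without Cre (control). All of these mice carry the floxed Rbfox2 and mTmG alleles, so the control group lacks Cre as well as the deletion. In culture, 1 aortic endothelial line immortalised with a TetOn-SV40 cassette gave 1 library each alone, with 10% plasma, with platelets and bone marrow macrophages, or with all of these for 48 hr. Primary aortic endothelial cells gave 1 library each from eGFP+ sorted cells with 5 days in culture, and from Rbfox2 control and EC-KO cells sorted as CD31+ and Icam2+ with 7 days in culture. By the study's methods, the line and the eGFP+ cells came from Rosa26-mTmG mice with Cdh5(PAC)-CreERT2. A figure legend of the study adds floxed Rbfox2 for eGFP+ cells.

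Levels are given as FPKM, the expected counts divided by the effective length of the gene and by the library total, which allows levels to be compared between genes. Differences are log2 fold changes from edgeR's quasi-likelihood test after TMM scaling, with their SE, and p-values were adjusted over all genes tested (Benjamini-Hochberg, threshold 0.05). Pools of 2 groups were said to overlap or not on CPM after TMM scaling. Totals ran from 4064477 to 6794904 counts in the untreated pools, from 12286104 to 19035957 in the treated pools and from 10318685 to 18633538 at 7 days. Pools of a group are separate samples, so p-values measure the spread between pools. The treated low-flow and high-flow pools came from different sequencing runs, so flow and run cannot be told apart there, and at 7 days the low-flow pools numbered 1, as well as EC-KO pool 4 and control pool 5, came from other runs than the high-flow pools. The recombined gene checked the labels at 7 days: Rbfox2 was at 2.74 to 5.73 FPKM in the 5 control pools and at 0.169 to 1.09 FPKM in the 5 EC-KO pools, with no overlap. In primary cells it was at 9.33 FPKM in the control and 0.675 FPKM in the EC-KO library. The arteries carried endothelial RNA, with a summed share of 11 endothelial markers of 0.989% to 1.13% of counts in untreated high-flow pools and 0.478% to 0.595% in low-flow pools.

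The 4 genes lie on mouse chromosome 15 within the Ly6 cluster (build NCBIM37). Ly6e is on the plus strand at chr15:74785481-74790335. Ly6a, Ly6c1 and Ly6c2 are on the minus strand at chr15:74825308-74828064, chr15:74875447-74879260 and chr15:74938590-74942114. Ly6i lies between Ly6e and Ly6a, 19.9 kb from the first and 11.4 kb from the other. Ly6a and Ly6c1 are 47.4 kb apart, and Ly6c1 and Ly6c2 59.3 kb. Ly6g, which follows Ly6c2 at a distance of 45.0 kb, had no row in the count table.

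The Ly6c1 and Ly6c2 coding sequences are each 396 bases long in 3 coding exons and differ at 9 bases (97.7% identical). The stretch that holds most of the differences, coding bases 7 to 36 in the first coding exon, is shown because it holds 5 of these 9 bases. Capitals mark the bases that differ.
Ly6c1, chr15:74878906-74878935, minus strand: aCtTctcacActacaaagtcctgtGtgctC
Ly6c2, chr15:74942062-74942091, minus strand: aGtActcacGctacaaagtcctgtTtgctG
The next 30 coding bases, 37 to 66, differ at 1 base, again in capitals.
Ly6c1, chr15:74878876-74878905, minus strand: attcttcttgtggccctactgtgtgcagAa
Ly6c2, chr15:74942032-74942061, minus strand: attcttcttgtggccctactgtgtgcagGa
The longest identical run of the coding sequences is 188 bases. Over whole transcripts, 114 of the 741 windows of 100 bases in Ly6c1 (15.4%) and 114 of the 697 in Ly6c2 (16.4%) are found in the other gene, so most windows tell the genes apart. Reads from the shared windows were divided between the genes by the authors' estimator, which leaves a small Ly6c2 level beside a large Ly6c1 level less certain. None of the 720 windows of Ly6a or the 2179 of Ly6e is found in Ly6c1. By coding sequence Ly6a is 83.8% identical to Ly6c1 and 83.6% to Ly6c2, and Ly6e 59.9% and 60.5%.

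In untreated mice at 48 hr, Ly6a and Ly6c1 were far lower in the low-flow intima than in the high-flow intima and Ly6c2 was higher, while Ly6e depended on the scale. Ly6a was at 257, 249 and 503 FPKM in the 3 low-flow pools and at 2789, 2767 and 2469 FPKM in the 3 high-flow pools. Ly6c1 was at 33.7, 26.8 and 145 FPKM under low flow and at 1881, 1766 and 1643 FPKM under high flow. Both genes are thus among the most abundant messages of the high-flow intima, Ly6a at ranks 23 to 33 of 21674 genes by FPKM and Ly6c1 at ranks 52 to 56. Under low flow they stood at ranks 237 to 403 and 760 to 1920. Ly6c2 was at 20.8, 28.4 and 31.6 FPKM under low flow and at 1.86, 3.62 and 2.80 FPKM under high flow, on 5.20 to 14.5 counts. The low-flow pools lay below every high-flow pool for Ly6a and Ly6c1 and above every one for Ly6c2.

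The log2 fold changes of low over high flow were -2.36 ± 0.30 for Ly6a, -4.26 ± 0.42 for Ly6c1 and 4.0 ± 0.34 for Ly6c2 (± SE, n = 3 pools each). Across the 11236 genes tested, 46.2% were called and 58.1% had pools that did not overlap, and this comparison was treated as one by which the 4 genes had been picked. Ly6e was at 669, 762 and 821 FPKM under low flow and at 1704, 1312 and 1327 FPKM under high flow. Its log2 fold change was -0.20 ± 0.40 after TMM scaling, with overlapping pools, and -0.95 with library totals in place of TMM scaling. The 10 most abundant genes held 22.8%, 23.5% and 10.4% of counts in the low-flow pools and 9.34% to 10.6% in the high-flow pools, with Actb alone at 10.6%, 10.1% and 3.74% under low flow. With library totals the median of all genes moved from -0.07 to -0.69 on the log2 scale, and the fold changes of Ly6a, Ly6c1 and Ly6c2 kept their direction.

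**Figure D1:**
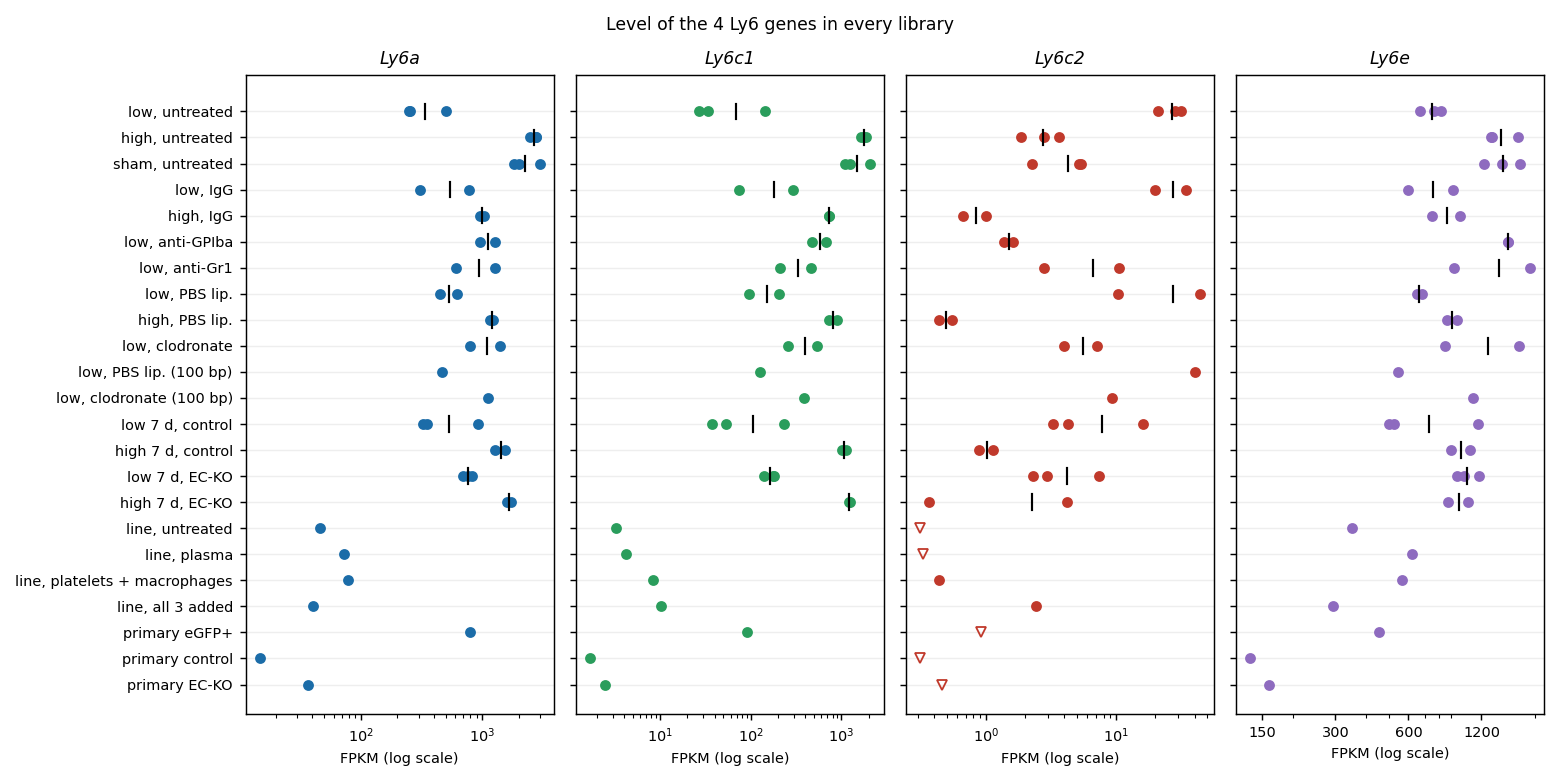
Level of each gene in every library, in FPKM on a log axis, by group; points are libraries, bars are group means where a group has more than 1 library, and open triangles are libraries under 3 counts drawn at the level of 3 counts. Ly6a and Ly6c1 are at their highest in the untreated high-flow and sham pools, Ly6c2 in low-flow pools of mice without depletion, and the cell line and the CD31+ and Icam2+ sorted primary libraries lie below the arteries for Ly6c1, while the eGFP+ library at 91.0 FPKM lies within the range of the low-flow pools.

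Sham-operated arteries gave levels that overlapped those of the high-flow side for all 4 genes. Ly6a was at 1994, 2980 and 1834 FPKM, Ly6c1 at 1257, 2072 and 1101 FPKM, Ly6c2 at 2.25, 5.36 and 5.15 FPKM and Ly6e at 1455, 1734 and 1232 FPKM in the 3 sham pools. The interferon-stimulated genes held 0.332%, 0.880% and 0.268% of counts in these pools, highest in the pool with the highest level of all 4 genes. The log2 fold changes of low flow over sham were -2.08 ± 0.30, -3.96 ± 0.45, 3.40 ± 0.36 and -0.17 ± 0.40 in the same order. Pools of the first 3 genes did not overlap, beside 56.6% of the 11164 genes tested, of which 40.3% were called; since the low-flow pools are those of the comparison above, these values are a description too. High flow and sham overlapped for every gene, and none was called by edgeR. The fold changes of high flow over sham were 0.30 ± 0.20 for Ly6a, 0.32 ± 0.23 for Ly6c1, -0.60 ± 0.45 for Ly6c2 and 0.04 ± 0.20 for Ly6e, with edgeR adjusted p-values of 0.797, 0.818, 0.826 and 0.988. Of the 11030 genes, 0.00% were called there by edgeR, 868 had an unadjusted p below 0.05, 12.6% had pools that did not overlap, and DESeq2 gave 101 calls.

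The makeup of the Ly6C message differed between the groups. Ly6c2 gave 36.7%, 50% and 17.1% of the counts of both genes in the 3 low-flow pools, against 0.148% ± 0.0509 under high flow and 0.283% ± 0.139 in sham arteries (SD, n = 3). Exact binomial 95% intervals, which cover counting error only, ran from 14.4% at the lowest to 57.8% at the highest low-flow bound and the highest upper bound in a high-flow or sham pool was 0.721%.

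**Figure D2:**
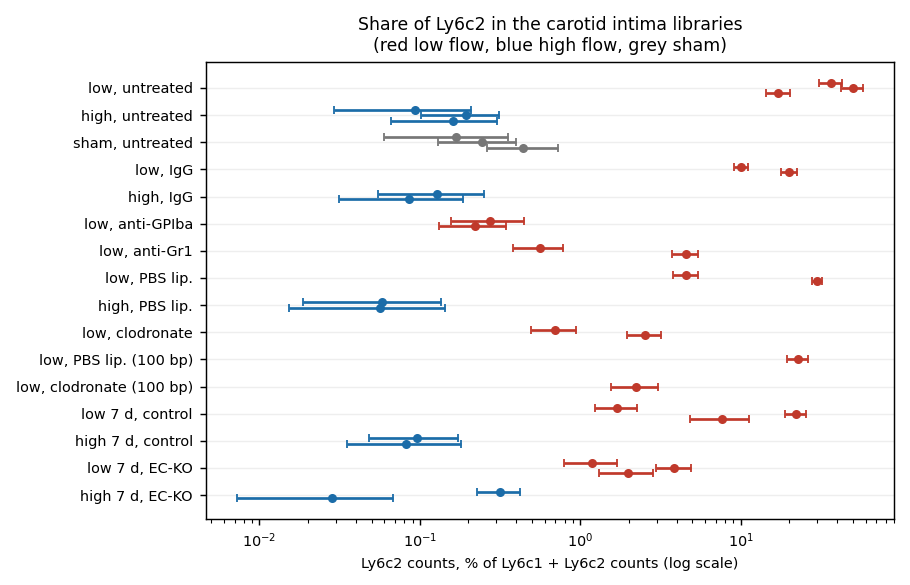
Percent of the summed Ly6c1 and Ly6c2 counts that came from Ly6c2, on a log axis, for each library by group; bars are exact 95% binomial intervals. The untreated low-flow pools lie between 17.1% and 50%, and the anti-GPIba pools between 0.221% and 0.275%.

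Markers of other cells moved with flow in the same pools. The summed share of 14 monocyte and macrophage markers was 0.230% to 0.342% of counts under low flow, 0.00709% to 0.0177% under high flow and 0.0221% to 0.0678% in sham arteries. The summed share of 11 neutrophil markers was 0.0251% to 0.0502% under low flow and 0.000749% to 0.00245% under high flow, where Elane was at 0. Smooth muscle markers held 0.232% to 0.430% under low flow and 0.0519% to 0.0616% under high flow. Of the 11 endothelial markers 2 were called higher, Kdr (2.49) and Emcn (2.14), and 3 lower, Cldn5 (-1.53), Tek (-1.36) and Icam2 (-1.27), by edgeR. Their median log2 fold change was 0.12, beside -0.07 over all genes, while their summed share was 0.478% to 0.595% under low flow and 0.989% to 1.13% under high flow. Fibroblast and adventitial markers fell in share along with Ly6a and Ly6c1, from 0.0465% to 0.0905% under high flow to 0.00646% to 0.0412% under low flow, and edgeR called 3 of the 7 lower, Pi16 (-2.74), Dpt (-2.07) and Col1a2 (-1.60). Ly6a protein, Sca-1, is also carried by adventitial cells. All 3 fat cell markers tested were called lower (median -5.54), on shares of at most 0.0248%. The part of these cells in the levels of the Ly6 genes was not tested, and in bulk RNA fewer cells of a type and less RNA per cell cannot be told apart.

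The same flow comparison could be tested in mice given control IgG or PBS liposomes, which are other animals. Ly6c1 fell and Ly6c2 rose under low flow in both sets. Ly6a was lower in every low-flow pool without passing the test, and Ly6e did not pass it. With IgG, Ly6c1 was at 290 and 74.0 FPKM under low flow and at 733 and 740 FPKM under high flow (log2 fold change -2.11 ± 0.61, edgeR adjusted p = 0.0177). Ly6c2 was at 34.5 and 19.7 FPKM against 0.992 and 0.672 FPKM, the latter on 8.01 and 6.01 counts, with a fold change of 4.93 ± 0.88 (edgeR adjusted p = 0.00229). The 2 calls compare with 40.5% of the 13401 genes tested, and the pools of 3 of the 4 genes did not overlap, as for 74.0% of all genes. With each pool left out in turn, the edgeR adjusted p of Ly6c1 ran from 0.00732 to 0.115 and the call was lost without either high-flow pool or low-flow pool 2, while that of Ly6c2 ran from 0.00925 to 0.0210. The fold change of Ly6c1 ran from -3.37 without low-flow pool 1 to -1.43 without low-flow pool 2. That of Ly6a ran from -1.74 to -0.44 over the same pools, and without low-flow pool 1 Ly6a was called (edgeR adjusted p = 0.0208). Centred on the median of the endothelial markers, the fold changes were -0.20 for Ly6a and -1.35 for Ly6c1. Ly6a was at 784 and 311 FPKM against 1044 and 953 FPKM (-0.96 ± 0.43, edgeR adjusted p = 0.0971). Ly6e was at 918 and 595 FPKM against 976 and 751 FPKM, which overlap (-0.27 ± 0.36, edgeR adjusted p = 0.563).

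With PBS liposomes, where 35.0% of genes were called, Ly6c1 was at 205 and 97.0 FPKM under low flow and at 892 and 726 FPKM under high flow (-2.31 ± 0.61, edgeR adjusted p = 0.0139). Ly6c2 was at 10.4 and 44.1 FPKM under low flow. In the high-flow pools it was at 0.553 and 0.433 FPKM, on 5.03 and 4.01 counts, and its fold change was 5.86 ± 0.93 (edgeR adjusted p = 0.0013). Counting error is therefore large on the high-flow side of both Ly6c2 ratios. Ly6a was at 621 and 448 FPKM against 1220 and 1169 FPKM (-1.05 ± 0.43, edgeR adjusted p = 0.0811). Ly6e was at 681 and 650 FPKM against 865 and 953 FPKM, a fold change of -0.34 ± 0.36 (edgeR adjusted p = 0.493). None of the 4 genes overlapped between low and high flow, as for 75.2% of all genes. With 1 pool left out, the edgeR adjusted p of Ly6c1 ran from 0.0277 to 0.116, losing the call without high-flow pool 1 or low-flow pool 2, and that of Ly6c2 from 0.00164 to 0.0220. With the pool number as a block, edgeR also called Ly6a with IgG (adjusted p = 0.0349) and with PBS (adjusted p = 0.0338). Over all genes the block called 5817 with IgG and 5101 with PBS, against 5422 and 4692 in the main fit. Whether low-flow and high-flow pools of 1 number came from the same mice is not given in the sources used here. Endothelial markers held 0.511% to 0.590% of counts under low flow and 1.44% under high flow with IgG, and 0.473% to 0.504% against 1.06% to 1.30% with PBS. Smooth muscle markers held 0.437% to 0.472% against 0.0506% to 0.0761% with IgG and 0.302% to 0.589% against 0.0483% to 0.0922% with PBS. Monocyte and macrophage markers held 0.237% to 0.260% against 0.00755% to 0.0282% with IgG and 0.139% to 0.230% against 0.0115% to 0.0217% with PBS. Fibroblast and adventitial markers held 0.0276% to 0.0367% against 0.106% to 0.111% with IgG and 0.0153% to 0.0221% against 0.0533% to 0.0663% with PBS. Their part in the Ly6 differences was not tested. The further PBS low-flow pool read at 100 bp held Ly6a at 465, Ly6c1 at 128, Ly6c2 at 39.9 and Ly6e at 543 FPKM, near the untreated and PBS low-flow pools, with Ly6e below all of them.

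**Figure D3:**
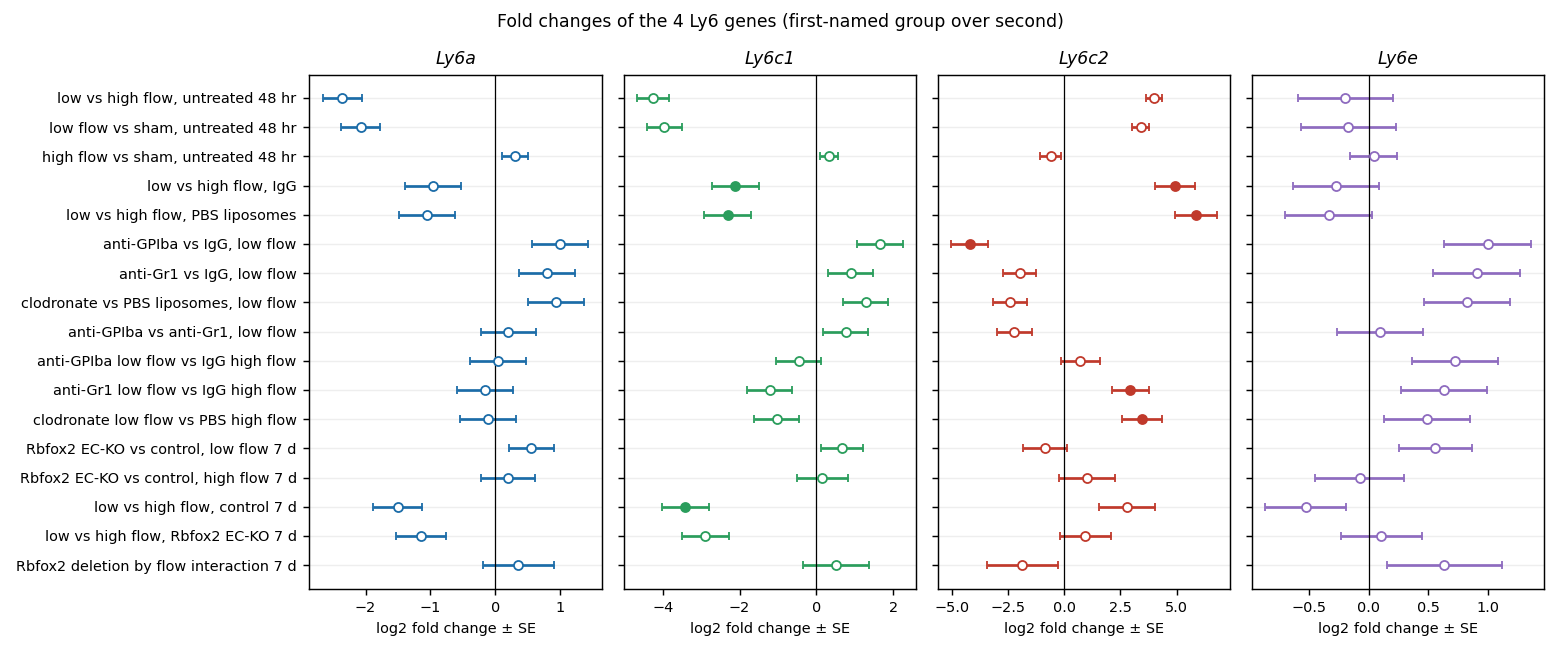
Log2 fold changes of each gene in every comparison, with bars of 1 SE; filled symbols are calls at an adjusted p under 0.05 where a test is given, and comparisons treated as those that chose the genes carry no test. Ly6c1 and Ly6c2 lie on opposite sides of 0 in the flow comparisons, at -4.26 and 4.0 in untreated mice, -2.11 and 4.93 with IgG, -2.31 and 5.86 with PBS, -3.41 and 2.80 in 7-day controls and -2.90 and 0.94 in EC-KO arteries, where the Ly6c2 pools overlap.

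Under low flow, Ly6c2 fell after platelet depletion. Ly6a, Ly6c1 and Ly6e were higher in both anti-GPIba pools than in either IgG pool, without passing the edgeR test with all groups in 1 fit. Ly6c2, at 34.5 and 19.7 FPKM with IgG, was at 1.39 and 1.61 FPKM after anti-GPIba, on 16.1 and 19.1 counts (-4.20 ± 0.82, edgeR adjusted p = 0.021). Of the 13401 genes 16.5% were called, and 73.9% had pools that did not overlap. Ly6a was at 961 and 1267 FPKM after anti-GPIba (1.00 ± 0.43, edgeR adjusted p = 0.12). Ly6c1 was at 473 and 683 FPKM (1.65 ± 0.60, edgeR adjusted p = 0.0735). Ly6e was at 1543 and 1541 FPKM (1.00 ± 0.37, edgeR adjusted p = 0.0755). In FPKM, Ly6e then lay above both IgG high-flow pools, and Ly6c1 between the low-flow and high-flow IgG pools. Leaving out any 1 of the 4 pools, which leaves 1 pool in a group, lost the Ly6c2 call. The fold change then ran from 0.50 to 1.81 for Ly6a, 0.99 to 2.93 for Ly6c1, -4.53 to -3.75 for Ly6c2 and 0.74 to 1.34 for Ly6e. Other settings called up to 4 of the genes. DESeq2 called Ly6c1 and Ly6e as well as Ly6c2, and no filter on low counts added Ly6c1. A fit of the compared groups alone added Ly6e, and a block on the pool number added all of the other 3. Of all genes, DESeq2 called 3659 and the block 3307, against 2216 in the main fit. Counts over all genes were not kept for the other settings.

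Ly6c2 made up 0.221% to 0.275% of the Ly6C counts after anti-GPIba and 10.1% to 20.0% with IgG. In the same low-flow pools the monocyte and macrophage markers held 0.0236% to 0.0326% of counts after anti-GPIba against 0.237% to 0.260% with IgG, and the neutrophil markers 0.000793% to 0.00154% against 0.0137% to 0.0398%. The endothelial markers held 0.985% to 0.999% against 0.511% to 0.590%, smooth muscle markers 0.0722% to 0.102% against 0.437% to 0.472%, and fibroblast and adventitial markers 0.0593% to 0.105% against 0.0276% to 0.0367%. Their part in the Ly6 levels was not tested. Centred on the endothelial markers, the fold changes of Ly6a, Ly6c1 and Ly6e were 0.38, 1.03 and 0.38. Set against the high-flow IgG pools, the anti-GPIba low-flow pools differed by 0.05 for Ly6a, -0.46 for Ly6c1, 0.73 for Ly6c2 and 0.73 ± 0.36 for Ly6e on the log2 scale. The edgeR adjusted p-values were 0.965, 0.653, 0.625 and 0.228, while 7.70% of genes were called and 59.7% did not overlap. Centred on the endothelial markers, these differences were 0.69, 0.18, 1.37 and 1.37. A fit of the compared groups alone called Ly6e (edgeR adjusted p = 0.0177).

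After anti-Gr1 and after clodronate liposomes the differences from the respective control had the same signs as after anti-GPIba, and none of the 4 genes passed the edgeR test, while DESeq2 called Ly6c2 for clodronate against PBS. After anti-Gr1, Ly6c2 was at 2.77 and 10.6 FPKM, below both IgG pools (-1.98 ± 0.73, edgeR adjusted p = 0.243). Ly6e was at 1909 and 929 FPKM (0.91 ± 0.37, edgeR adjusted p = 0.252), with pool 2 close to the higher IgG pool in FPKM and both above the IgG pools. The summed share of 33 interferon-stimulated genes was 0.509% of counts in anti-Gr1 pool 1, which had the higher Ly6e and Ly6a, 0.220% in pool 2 and 0.114% to 0.201% with IgG, and its part was not tested. Ly6a, at 1289 and 612 FPKM, and Ly6c1, at 464 and 209 FPKM, overlapped with IgG (0.80 and 0.89, edgeR adjusted p = 0.337 and 0.42). In that comparison 0.00% of genes were called by edgeR, while 2432 had an unadjusted p below 0.05, DESeq2 gave 142 calls, and 51.0% of genes had pools that did not overlap. The monocyte and macrophage markers were at 0.138% to 0.140% of counts and the neutrophil markers at 0.00206% to 0.00402%. Endothelial markers held 0.766% and 0.703% after anti-Gr1 and 0.590% and 0.511% with IgG, and fibroblast and adventitial markers 0.0965% and 0.0695% against 0.0367% and 0.0276%. Smooth muscle markers held 0.180% and 0.623% in anti-Gr1 pools 1 and 2 and 0.437% to 0.472% with IgG.

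After clodronate, Ly6a was at 1408 and 797 FPKM (0.93 ± 0.43, edgeR adjusted p = 0.34 against PBS), and Ly6c1 was at 536 and 259 FPKM (1.28 ± 0.59, edgeR adjusted p = 0.339). Ly6c2 was at 3.99 and 7.09 FPKM (-2.40 ± 0.75, edgeR adjusted p = 0.226), and Ly6e was at 1707 and 852 FPKM (0.83 ± 0.37, edgeR adjusted p = 0.323). The clodronate and PBS pools did not overlap for any of the 4 genes, beside 50.6% of genes; 0.119% of genes, 16 in number, were called by edgeR, and 467 by DESeq2. The clodronate low-flow pool read at 100 bp held Ly6a at 1108, Ly6c1 at 385, Ly6c2 at 9.29 and Ly6e at 1104 FPKM, which for Ly6a, Ly6c1 and Ly6e is above and for Ly6c2 below the PBS pool read at 100 bp. The monocyte and macrophage markers held 0.0243% to 0.0248% of counts in the clodronate pools and 0.139% to 0.230% in the PBS pools. The neutrophil markers held 0.00333% to 0.00405% and 0.0115% to 0.0342%. Endothelial markers held 0.906% and 0.645% after clodronate and 0.473% and 0.504% with PBS, highest in clodronate pool 1, which had the highest Ly6a, Ly6c1 and Ly6e of these 4 pools. That pool also had the highest share of interferon-stimulated genes, 0.288% against 0.167% in clodronate pool 2 and 0.154% to 0.162% with PBS, and of fibroblast and adventitial markers, 0.0527% against 0.0190% and 0.0153% to 0.0221%. Their part was not tested.

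Against high-flow pools, Ly6c2 passed the edgeR test after both treatments with all groups in 1 fit, and in neither when the compared groups were fitted alone. Its fold change was 2.95 ± 0.84 for anti-Gr1 low flow over IgG high flow (edgeR adjusted p = 0.0417, with 13.1% of genes called and 55.1% not overlapping) and 3.47 ± 0.88 for clodronate low flow over PBS high flow (edgeR adjusted p = 0.0369, with 7.41% called and 51.3% not overlapping). Without the pool of anti-Gr1 numbered 2, of clodronate numbered 2 or either high-flow pool, the respective call was lost, and with 1 pool left out the edgeR adjusted p ran from 0.0284 to 0.230 and from 0.0283 to 0.251. For Ly6c1 these fold changes were -1.22 ± 0.59 (edgeR adjusted p = 0.181) and -1.03 (edgeR adjusted p = 0.301). The direct comparison of anti-GPIba with anti-Gr1 gave -2.22 ± 0.78 for Ly6c2 (edgeR adjusted p = 0.344) and 0.20, 0.76 and 0.09 for Ly6a, Ly6c1 and Ly6e. There 0.00% of genes were called by edgeR, 1409 had an unadjusted p below 0.05, 41.8% did not overlap, and DESeq2 gave 354 calls.

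At 7 days, control arteries showed the flow difference in Ly6c1, and the 3 low-flow control pools were unlike each other. Ly6c1 was at 231, 52.9 and 37.2 FPKM in the control low-flow pools numbered 1, 4 and 5 and at 1113 and 1011 FPKM in the 2 high-flow pools (-3.41 ± 0.62, edgeR adjusted p = 0.0317, with 2.40% of the 13352 genes called and 39.8% not overlapping). This call was lost without any 1 of the pools other than low-flow pool 1 (edgeR adjusted p up to 0.199). In a fit of the compared groups alone none of the 4 genes was called by edgeR (adjusted p = 0.216 for Ly6c1). With the pool number as a block, edgeR called Ly6a (adjusted p = 0.00613), Ly6c1 (adjusted p = 0.00196) and Ly6e (adjusted p = 0.0395). Over all genes the block called 2940, against 320 in the main fit. Ly6a was at 921, 354 and 329 FPKM against 1557 and 1280 FPKM (-1.50 ± 0.38, edgeR adjusted p = 0.0597). Ly6c2 was at 4.25, 16.0 and 3.24 FPKM against 1.14 and 0.880 FPKM (2.80 ± 1.24, edgeR adjusted p = 0.195). Ly6e was at 1165, 525 and 498 FPKM against 1074 and 897 FPKM, which overlap (-0.53 ± 0.34, edgeR adjusted p = 0.361). Pool 1 of the control low-flow group had the highest Ly6a, Ly6c1 and Ly6e of the 3. It also had the highest share of endothelial markers, 0.869% against 0.545% and 0.563%, of interferon-stimulated genes, 0.297% against 0.160% and 0.145%, and of fibroblast and adventitial markers, 0.108% against 0.0492% and 0.0449%. In the high-flow controls endothelial markers held 1.27% to 1.29%. Smooth muscle markers held 0.129% to 0.176% under low flow and 0.0292% to 0.0387% under high flow. Their part in the Ly6 levels was not tested.

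In EC-KO arteries at 7 days Ly6a and Ly6c1 were lower in every low-flow pool than in either high-flow pool, and whether they passed the flow test depended on the setting. None of the 4 genes passed edgeR with all groups in 1 fit. With the pool number as a block Ly6a (edgeR adjusted p = 0.0264) and Ly6c1 (edgeR adjusted p = 0.0039) did, as they did in a fit of the compared groups alone. Ly6c1 also passed with DESeq2 and with no filter on low counts. Over all genes the block called 1317 and DESeq2 948, against 146 in the main fit. Ly6c1 was at 180, 174 and 139 FPKM under low flow and at 1239 and 1201 FPKM under high flow (-2.90 ± 0.61, edgeR adjusted p = 0.0592, with 1.09% of genes called). Ly6a was at 771, 696 and 821 FPKM against 1601 and 1742 FPKM (-1.15 ± 0.38, edgeR adjusted p = 0.186). Ly6c2 was at 2.30, 7.38 and 2.97 FPKM against 4.17 and 0.363 FPKM (0.94 ± 1.12, edgeR adjusted p = 0.727). With each pool left out in turn, its fold change ran from 0.061 to 3.52. Ly6e was at 1173, 950 and 1016 FPKM against 1054 and 877 FPKM (0.11 ± 0.34, edgeR adjusted p = 0.91). The Ly6a and Ly6c1 groups did not overlap, beside 43.6% of genes, and the Ly6c2 and Ly6e groups did. Centred on the endothelial markers, the flow difference of Ly6a was -0.42 in EC-KO and -0.74 in control arteries. In EC-KO arteries these markers held 0.731% to 0.797% of counts under low flow and 1.32% under high flow, and smooth muscle markers 0.110% to 0.168% and 0.0274% to 0.0320%. Fibroblast and adventitial markers held 0.104% to 0.349% under low flow and 0.0546% to 0.0664% under high flow, the opposite order to that in untreated, IgG and PBS mice, and edgeR called 1 of the 7 higher, Lum (5.05). Their part in the Ly6 levels was not tested.

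Under low flow, the EC-KO and control pools overlapped for each of the 4 genes. The log2 fold changes of EC-KO over control were 0.55 ± 0.35 for Ly6a, 0.67 ± 0.54 for Ly6c1, -0.84 ± 0.98 for Ly6c2 and 0.56 ± 0.31 for Ly6e. With the pool number as a block they were 0.72, 1.12, -0.68 and 0.66. In pools 1, 4 and 5 the fibroblast and adventitial markers held 0.104%, 0.349% and 0.113% in EC-KO and 0.108%, 0.0492% and 0.0449% in control arteries, and interferon-stimulated genes 0.255%, 0.270% and 0.379% against 0.297%, 0.160% and 0.145%. Their part was not tested. Since this comparison was treated as one that chose the genes, these are a description; 0.00% of all genes were called by edgeR, 880 had an unadjusted p below 0.05, DESeq2 gave 11 calls, and 7.84% of genes had pools that did not overlap. Both low-flow pools numbered 1 came from the run of the treated low-flow pools, and they were left out in a fit added after seeing the data. The values were then 1.16, 1.81, -0.85 and 0.95, and 3 of the 4 genes no longer overlapped. The share of all genes without overlap was not counted for that fit of 2 pools against 2. Under high flow, EC-KO and control at 2 pools each did not overlap for 38.2% of genes. Without the pools numbered 1, the flow comparison in controls called Ly6a (-2.12, edgeR adjusted p = 0.000398), Ly6c1 (edgeR adjusted p = 0.000193) and Ly6e (-1.01, edgeR adjusted p = 0.00335). That in EC-KO called Ly6a (edgeR adjusted p = 0.00964) and Ly6c1 (edgeR adjusted p = 0.00202). The share of all genes called was not counted in that fit, so these calls cannot be set against it.

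The difference between the flow responses of EC-KO and control arteries was tested as an interaction. It was 0.36 for Ly6a, 0.51 for Ly6c1, -1.86 for Ly6c2 and 0.64 ± 0.49 for Ly6e (edgeR adjusted p = 0.986 for each). The interaction includes the EC-KO against control difference under low flow, which was treated as used for the choice. Its p-values, here and without the pools numbered 1, are thus not independent of the choice. For the interaction 0.00% of genes were called by edgeR, 538 had an unadjusted p below 0.05, and DESeq2 gave 19 calls. Without the pools numbered 1 the interaction was 0.97, 1.66, -1.86 and 1.03, with edgeR adjusted p-values of 0.175, 0.129, 0.663 and 0.153. Under high flow, EC-KO and control differed by 0.19, 0.15, 1.02 ± 1.24 and -0.08 in the order Ly6a, Ly6c1, Ly6c2 and Ly6e (edgeR adjusted p = 1 for each, with 0.00749% of genes called and 38.2% not overlapping). At 7 days the monocyte and macrophage markers held 0.0457%, 0.186% and 0.0371% of counts in the control low-flow pools 1, 4 and 5 and 0.108% to 0.199% in the EC-KO low-flow pools, against 0.00530% to 0.0139% in high-flow pools of either genotype. The neutrophil markers held 0.00256%, 0.0392% and 0.00235% in the control low-flow pools, so that pool 4, which had the most Ly6c2 of the 3 at 16.0 FPKM, also had the most of both marker sets. Their part in the Ly6c2 level was not tested.

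**Figure D4:**
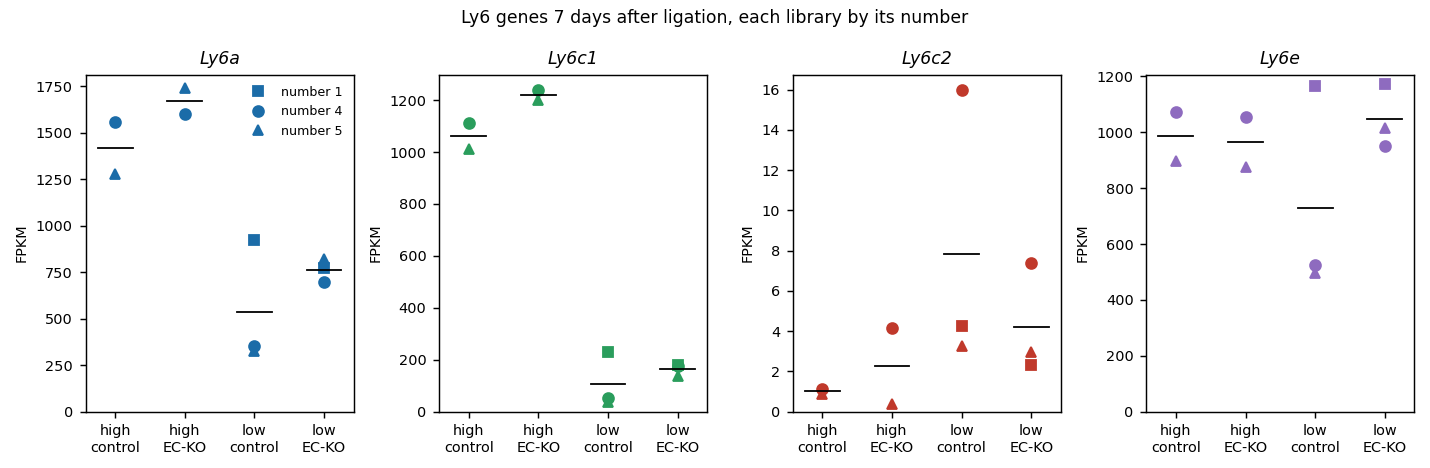
Level of each gene at 7 days in FPKM, for control and EC-KO arteries under low and high flow. Symbols give the pool number (1, 4 or 5) and lines the group mean. For Ly6c1 the control low-flow pools run from 37.2 to 231 FPKM and the EC-KO low-flow pools from 139 to 180 FPKM.

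In the cell line Ly6c1 was below every arterial pool, and Ly6c2 was at or near 0 unless blood cells had been added. With 1 library per condition there is no test. Ly6c1 was at 3.22 FPKM alone, 4.20 FPKM with plasma, 8.25 FPKM with platelets and macrophages and 10.2 FPKM with all of these. Ly6c2 was at 0 counts alone and with plasma, which allows up to 0.311 and 0.327 FPKM (3 counts), and was at 0.440 FPKM with platelets and macrophages and 2.43 FPKM with all, on 4.06 and 26.2 counts. These are the conditions to which blood cells had been added, and the monocyte and macrophage markers held 0.00206%, 0.00573%, 0.0391% and 0.0306% of counts in the same order. Ly6a was at 46.7, 73.6, 79.3 and 41.0 FPKM and Ly6e at 352, 619, 562 and 294 FPKM in that order, so that neither followed the order of Ly6c1. The line held 0.0292% to 0.0370% of its counts in endothelial markers, well below the arteries.

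Among primary cells, the library sorted on eGFP stood above both libraries sorted on CD31 and Icam2. It held Ly6a at 793, Ly6c1 at 91.0 and Ly6e at 453 FPKM, and its Ly6c1 was above that of untreated low-flow pools A and B. The Rbfox2 control and EC-KO libraries held Ly6a at 14.8 and 36.6 FPKM, Ly6c1 at 1.67 and 2.45 FPKM (17 counts each) and Ly6e at 133 and 159 FPKM. Ly6c2 was under 1 count in all of them, which allows up to 0.915 FPKM in the eGFP+ library and 0.314 and 0.460 FPKM in the others. The endothelial markers held 0.419% to 0.515% of counts in the 3 libraries. These libraries differ in genotype, time in culture, sorting marker and read length, so the levels are set side by side only.

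Over the 33 libraries of carotid intima, Ly6a and Ly6c1 varied together and Ly6c2 against them. On log2(CPM + 1) after TMM scaling, Pearson's r was 0.952 for Ly6a and Ly6c1, 0.981 within the 9 untreated pools, 0.940 within the 14 treated pools and 0.978 within the 10 pools at 7 days. For Ly6c1 and Ly6c2 it was -0.620 over all, and -0.977, -0.891 and -0.658 within the 3 sets. Ly6e followed Ly6a less closely, at 0.717 over all and 0.462, 0.766 and 0.781 within the sets. Each set mixes low-flow with high-flow pools, and sequencing runs differ within the treated and 7-day sets, so flow and run are common to the genes compared, and no p is given.

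**Figure D5:**
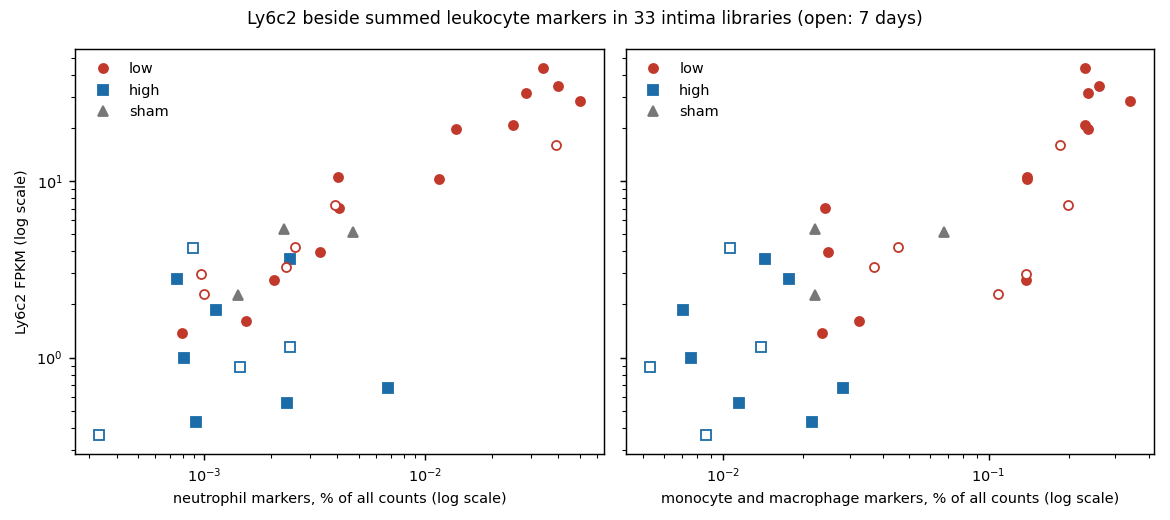
Ly6c2 level against the summed share of neutrophil markers (left) and monocyte and macrophage markers (right) in the 33 intima libraries, both on log axes. Each point is a library, coloured by low flow, high flow or sham, and open symbols are from 7 days. Low-flow libraries of untreated, IgG and PBS mice lie at the upper right, with Ly6c2 between 10.4 and 44.1 FPKM.

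The genes most like each Ly6 gene were named as the 5 with the highest r among 10477 genes with a mean of at least 5 CPM. Ly6a was most like Il15, an interleukin, Mustn1, Ly6c1, Cytl1 and Sdf4 (0.945 to 0.956). Ly6c1 was most like Tm6sf2, Klk11, Gatsl3, Cxcr7, an atypical chemokine receptor, and Tcta (0.952 to 0.959). Ly6c2 was most like Slpi, a protease inhibitor, Ifitm1, Cxcr2, a chemokine receptor of neutrophils, Sirpb1b and Amica1 (0.934 to 0.937). Ly6e was most like Clu, the secreted chaperone clusterin, H2-D1, a class I histocompatibility antigen, Tmem176a, Tmem176b and Bptf (0.869 to 0.918). With Spearman's rho in place of r, 2 of the 5 names were shared for each gene.

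Of 30 listed genes of the Ly6 and uPAR family other than the 4 members, 27 were in the table. This list and those below were chosen with earlier results of these data known, so p-values of their genes are not independent of the choice. The highest mean in any group was 495 FPKM for Plaur, 199 for Cd59a, 77.8 for Ly6d and 38.0 for Lypd1. Of the 27, 4 passed the filter on low counts in untreated low and high flow: 1 was called higher and 3 lower, with 46.2% of genes called in all. Plaur, the urokinase receptor, rose (405 ± 132 FPKM under low flow against 128 ± 21.0, SD, n = 3; log2 fold change 2.46 ± 0.39, edgeR adjusted p = 0.000477). Cd59a, an inhibitor of complement, fell (35.6 ± 24.8 against 199 ± 9.93 FPKM; -1.94, edgeR adjusted p = 0.000109), as did Lynx1, a modulator of nicotinic receptors (-2.33, edgeR adjusted p = 2.42e-05), and Ly6g6d (-1.09, edgeR adjusted p = 0.0410). In mice given IgG, 2 of 9 tested were called higher and 2 lower, a share near the 40.5% of all genes. The higher genes were Plaur (2.20, edgeR adjusted p = 0.0215) and Ly6i (edgeR adjusted p = 0.0216), the neighbour of Ly6a, which was at 0 counts in both IgG high-flow pools and at 0.787 and 1.98 FPKM in the low-flow pools. The lower genes were Lynx1 (-3.68, edgeR adjusted p = 0.000576) and Cd59a (-1.04, edgeR adjusted p = 0.0423). With PBS, 1 of 9 was called higher and 2 lower, near the 35.0% of all genes: Plaur (1.87, edgeR adjusted p = 0.0448), Lynx1 and Cd59a. After anti-GPIba Plaur was the 1 family gene of 9 called against IgG, beside 16.5% of all genes, and it fell (-2.16, edgeR adjusted p = 0.0461).

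The enzymes that make and attach the GPI anchor showed no common direction. Of 28 genes, 26 were tested in untreated mice, with 5 called higher and 6 lower, a share near the 46.2% of all genes. Their median log2 fold change was -0.17, beside -0.07 over all genes. With IgG 8 were called higher and 2 lower of 28 (median 0.19, all genes 0.07), beside 40.5% of all genes, and with PBS 5 higher and 3 lower, beside 35.0%. Pigf, which helps transfer ethanolamine phosphate to the anchor, rose with both (1.88, edgeR adjusted p = 0.00262, and 1.79, edgeR adjusted p = 0.00315) and was lower after anti-GPIba than with IgG (-1.36, edgeR adjusted p = 0.0310). Pigg, which adds ethanolamine phosphate to the second mannose, fell with both (-1.90, edgeR adjusted p = 0.000976, and -1.69, edgeR adjusted p = 0.00138). None of the 28 was called in any comparison at 7 days by edgeR.

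Genes of the interferon pathway, which induces Ly6e and Ly6a in other settings, were also mixed. Of 15 receptors and signalling genes, 14 were tested in untreated mice, with 5 called higher and 0 lower, beside 46.2% of all genes. With IgG 2 were higher and 3 lower of 15, beside 40.5%, and with PBS 2 higher and 4 lower, beside 35.0%. Irf8, a transcription factor of the myeloid lineages, rose under low flow in untreated mice (5.43, edgeR adjusted p = 2.06e-06), with IgG (5.74, edgeR adjusted p = 0.00114) and with PBS (3.37, edgeR adjusted p = 0.00663). It was lower after anti-GPIba than with IgG (-3.50, edgeR adjusted p = 0.0227). Ifngr2, a chain of the interferon gamma receptor, rose with IgG (1.65, edgeR adjusted p = 0.00275) and was lower after anti-GPIba (-1.24, edgeR adjusted p = 0.0302), while Tyk2, a receptor kinase, fell with IgG (-1.44, edgeR adjusted p = 0.00530).

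Of 33 interferon-stimulated genes, 29 were tested in untreated mice, with 4 called higher and 10 lower and a median of -0.62, beside 46.2% of all genes called. With IgG 4 were higher and 1 lower of 33, beside 40.5%, and with PBS 4 higher and 5 lower, beside 35.0%. For anti-Gr1 low flow over IgG high flow 7 were higher and 0 lower of 33 (median 1.44, all genes 0.06), beside 13.1%. Ifitm1, a membrane protein named above among the genes most like Ly6c2, rose with IgG (5.14, edgeR adjusted p = 0.00276) and was the 1 gene of this list called after anti-GPIba against IgG, where it fell (-5.71, edgeR adjusted p = 0.0150).

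Start regions of Ly6c1 and Ly6c2, 2 windows each from 250 bases before to 50 after the start, were read in RefSeq (GRCm38.p6); 2 of the 4 genes had such windows. The letters GAGGAAGT, an ETS-type motif of the kind bound by PU.1, a regulator of myeloid genes, were searched on both strands and are in 3.2% of 32851 windows of this length. The 2 Ly6c2 windows overlap and hold them at the same 2 places, and the Ly6c1 windows hold them at 0 and 1. Sites are shown from the first window of each gene, so the Ly6c1 match is not shown. The Ly6c2 matches lie at positions -108 and 27 from the start of 1 window (first base of the motif, the start being 1) and are shown in capitals because the pair moved in opposite directions.
Ly6c2, GRCm38.p6 chr15:75112061-75112090, minus strand: atgttggccctGAGGAAGTaagaaccaaaa
Ly6c2, GRCm38.p6 chr15:75111927-75111956, minus strand: acctggtcagaGAGGAAGTaaggactggtg
The letters CCACCC, found in 31.48% of windows, are at 2 places in 1 Ly6c1 window and in neither Ly6c2 window. TTCNNNGAA (8.3%) is in none of the 4, nor is the other motif searched, an interferon response element (3.44%). The motifs were chosen after the levels were seen, and a match describes letters, not a site or a cause.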

How the data were processed

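Libraries were made from intimal RNA with a low-input SMARTer kit and read at 100 or 150 bp. The table deposited by the authors holds, per library, expected counts from RSEM 1.2.15 (alignment with STAR 2.5.1b per the submitters' processing notes; the study's methods give TopHat for the untreated pools) on mm9, beside normalised values, and per gene the authors' length and effective length. Of 204 value columns 42 were used, 1 of expected counts per library (the first run of each untreated pool and, at 7 days, the deeper run of EC-KO pool 4 and control pool 5), and 162 were not used here. Of 21675 rows 1 named no gene and was left out (at most 0.117% of counts). Expected counts were rounded to whole numbers for the tests; 5.2% to 19.3% of values were not whole. FPKM was computed from expected counts, effective lengths and library totals.

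Genes passing filterByExpr were fitted by edgeR 4.0.16 in R 4.3.3 (TMM, quasi-likelihood, Benjamini-Hochberg). Untreated groups were fitted in pairs, the 7 treated groups of 2 together and the 4 groups at 7 days together. The scripts were tested on simulated data. Groups came from the sample labels. The members and lists (Ly6 and uPAR family, GPI anchor, interferon signalling, interferon-stimulated genes, and endothelial, monocyte and macrophage, neutrophil and smooth muscle markers) were chosen with earlier results of these data known. Beside the 4 genes, those named are at most the 3 largest calls of a list in each direction. Alternatives were DESeq2 1.42.0, RLE, no filter, the compared groups alone or all untreated groups together, centring on endothelial markers, Ly6c1 and Ly6c2 summed, a replicate block and each pool left out. Library totals and the omission of the 7-day pools numbered 1 were added after seeing the data.

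At 7 days the column names number the low-flow pools 1, 4 and 5. Deviations of low-flow control and EC-KO pools with the same number had r = 0.489, 0.170 and 0.272 for numbers 1, 4 and 5. These values do not show pairing, since treated groups that share only numbers reached 0.443. The 2 pools numbered 1 also came from a run that the other 7-day pools did not share. The main fit left the numbers out, and the replicate block is an alternative. Floors are 3 counts.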

Additional observations from a re-analysis of the deposited data

How the results depend on the processing

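Of the alternatives for single genes, 770 were scored the same, 27 reversed, 31 passed the threshold newly, 22 lost it and 16 moved. Where a test was given, the same meant the same direction and side of the threshold. For centring and for comparisons without a test, it meant the same direction and a shift smaller than the SD between pools. Where calls of the 4 genes changed, the cause was not tested. Beyond the main fit, counts of all genes called were kept only for DESeq2 and the replicate block. The other counts below thus have no share of all genes beside them. With each pool left out, the number called was 1 to 3 for flow with IgG (main 2), 1 to 2 with PBS (main 2), 0 for anti-GPIba against IgG (main 1), 0 to 1 for anti-Gr1 low flow against IgG high flow and for clodronate low flow against PBS high flow (main 1 each), and 0 to 3 for flow in 7-day controls (main 1); for EC-KO against control under low flow, 0 to 3 did not overlap (main 0). Anti-GPIba against IgG gave 3 calls with DESeq2, 2 with no filter, 2 with the compared groups alone and 4 with the replicate block. Clodronate against PBS gave 1 with DESeq2. With the compared groups alone, anti-GPIba low flow against IgG high flow gave 1, and the calls for anti-Gr1 and clodronate against high flow fell to 0. Flow in 7-day controls gave 2 with DESeq2, 3 without the pools numbered 1, 2 with no filter, 0 with the compared groups alone and 3 with the replicate block. Flow in EC-KO (main 0) gave 1 with DESeq2, 2 without the pools numbered 1, 1 with no filter, 2 with the compared groups alone and 2 with the replicate block, and EC-KO against control under low flow without the pools numbered 1 had 3 that did not overlap. Low over high flow as a ratio of means was 0.126 for Ly6a, 9.77 for Ly6c2 and 0.518 for Ly6e in FPKM, and 0.186, 16.4 and 0.838 in CPM after TMM scaling.

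Among genes that were not called, direction reversed as follows, on the log2 scale. Ly6e, with each pool left out, ran from -0.39 to 0.036 for low over high flow (positive without low-flow pool C or high-flow pool D), from -0.35 to 0.067 for low flow over sham (positive without pool C), from -0.14 to 0.14 for high flow over sham (negative without pools D or I) and from -0.59 to 0.0038 for flow with IgG (positive without low-flow pool 2). High flow over sham also gave -0.028 for Ly6e with library totals and -0.11 on centring, flow with IgG 0.48 and flow in 7-day controls 0.23 on centring, and flow in EC-KO -0.12 with the replicate block. Anti-GPIba against anti-Gr1 ran from -0.20 to 0.76 for Ly6a and from -0.30 to 0.63 for Ly6e (lowest without anti-Gr1 pool 2), and gave -0.20 and -0.31 on centring. Against high-flow pools, Ly6a ran from -0.17 to 0.24 for anti-GPIba, from -0.72 to 0.25 for anti-Gr1 and from -0.55 to 0.25 for clodronate, each turning without pool 2 of the depleted group, and Ly6e from -0.057 to 0.92 for clodronate (negative without pool 1). Centring gave 0.18 for Ly6c1 with anti-GPIba and 0.49 for Ly6a with anti-Gr1. At 7 days, EC-KO against control ran from -1.56 to 0.20 for Ly6c2 under low flow (positive without control pool 4), and under high flow from -1.57 to 1.89 for Ly6c2 (negative without EC-KO pool 4) and from -0.18 to 0.032 for Ly6e (positive without EC-KO pool 5 or control pool 4). The interaction for Ly6c2 ran from -2.74 to 0.75 (positive without high-flow EC-KO pool 4).

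Compared groups share only numbers. Outside the low-flow groups at 7 days, r ran from -0.0682 for IgG and anti-GPIba to 0.443 for clodronate low flow and PBS high flow. The replicate block moved the count of all genes called from 16 to 64 for clodronate against PBS, from 320 to 2940 for flow in 7-day controls and from 146 to 1317 for flow in EC-KO, and called Ly6a for flow with IgG (edgeR adjusted p = 0.0349) and PBS (edgeR adjusted p = 0.0338). The untreated pools carry letters, so no block was possible there. All genes called numbered 467 by DESeq2 against 16 for clodronate against PBS, 3659 against 2216 for anti-GPIba against IgG, 2187 against 320 for flow in 7-day controls and 948 against 146 in EC-KO. The second sequencing run, both runs summed and the deposited RPKM were planned and not run, because the repeated columns could not be matched to single samples. Summed Ly6c1 and Ly6c2 counts give no value for Ly6c2. With low counts, Ly6c2 levels of high-flow pools rest on 4.01 to 43.3 counts.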
